A study of Homo sapiens with 8 samples.

Results

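The 8 genes described here encode surface antigens by which acute myeloid leukemia (AML) cells are recognised in the clinic: CD33, CLEC12A, CD44, CD47, CD38, CD34, HAVCR2 and FUT4. They were chosen by name, as rows of a count table of 38551 genes, and 7 of the 8 passed the filter on low counts that left 13179 genes for testing. The exception was CD34. RNA came from MOLM-13, an established human AML cell line with a rearranged KMT2A gene, maintained in RPMI with serum. One group of 4 libraries received PR-957, an inhibitor of the immunoproteasome subunit PSMB8, at 100 nM for 72 h, and the other group of 4 received the diluent DMSO for the same time. All 8 libraries are therefore from 1 cell line. The labels number the replicates but do not say that they came from separate cultures, so the p-values measure the spread between these libraries, which may be technical. In bulk RNA, fewer cells carrying a transcript and less of it per cell cannot be told apart, and transcript counts say nothing of how much protein reaches the surface.

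Surface antigens of this kind sort leukemia cells by lineage and maturity and are bound by therapeutic antibodies and engineered T cells. CD33 is a sialic acid-binding lectin of myeloid cells and CLEC12A a C-type lectin, and both carry cytoplasmic inhibitory motifs (ITIMs) that recruit phosphatases once phosphorylated. CD44 binds hyaluronan in the marrow niche. CD47 binds SIRPA on macrophages and restrains phagocytosis. CD38 is an ectoenzyme that breaks down NAD, CD34 is a sialomucin of stem and progenitor cells, and HAVCR2 (TIM-3) is an inhibitory receptor found on leukemia stem cells. FUT4 is not itself the antigen: it is the fucosyltransferase that builds the CD15 carbohydrate of maturing myeloid cells.

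Library totals ran from 16675036 to 23111223 counts, so that 3 counts, used here as the floor, amounted to 0.130 to 0.180 CPM (counts scaled to a common library size). The scaling used edgeR's trimmed mean of M-values (TMM). The first principal component held 59.5% of the variance and separated the treatments, while along the second (13.5%) the libraries numbered 1 and 2 lay away from those numbered 3 and 4 under either treatment. That split was read off these libraries and is not in the labels, and over all genes it did not order the DMSO libraries. By chi-square per gene the closest DMSO libraries were 1 and 3 (3.18), against 4.68 for 1 and 2 and 9.52 for 3 and 4. In PR-957 the closest were 1 and 2 (4.18), with 5.03 for 1 and 3 and 5.07 for 3 and 4. This measure grows with depth, and DMSO library 4 had the largest total. Mitochondrially encoded genes took 1.94 to 2.75% of counts in DMSO and 4.15 to 5.24% in PR-957, and the part of this difference in the results below was not tested. Of 10 genes taken as markers of the line, including PTPRC, SPI1, MPO and CD33, all 10 passed the filter, and their summed level was 1673 to 1754 CPM in DMSO and 2355 to 2602 CPM in PR-957. In this list 3 genes rose and 4 fell, where 46.6% of all tested genes were called. The largest rises in CPM were those of LYZ and MPO. In replicates 1 and 2, then 3 and 4, LYZ averaged 152 and 155 CPM in DMSO and 752 and 888 CPM in PR-957. MPO averaged 171 and 178 CPM in DMSO and 500 and 511 CPM in PR-957. FLT3, also in this list, fell from 340.4 to 173.1 CPM. Of 16 markers of T, B, erythroid, megakaryocytic, stromal and epithelial cells, 4 passed the filter, no library held over 34 counts of any of them, and CD3E, CD3G and PF4 were at 0. Their summed level was 4.07 to 6.76 CPM in DMSO and 3.90 to 6.58 CPM in PR-957. Here 0 of the 4 was called by edgeR, with 1 at an unadjusted p under 0.05, and DESeq2 called 1.

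The sequences just upstream of the start sites are shown for the 3 genes whose transcripts changed and for CD34, which was barely counted, since the results turn on these genes. They are from RefSeq (GRCh38.p14), which held promoters for 7 of the 8 genes and none for HAVCR2, and each window of 250 bases was cut at the first base that the count table treats as exon, which left 247 for CD44 and 180 for FUT4. The windows of CD33 and CD47 open inside such an exon and are not shown. The counted CLEC12A exons begin farther upstream than the RefSeq start used here. Capitals mark 3 motifs searched on both strands, which do not overlap here: the ETS core GAGGAA of the PU.1 type, the GC box GGGCGG and the TATA box TATAAA.
CLEC12A (chr12:9971159-9971408, plus strand): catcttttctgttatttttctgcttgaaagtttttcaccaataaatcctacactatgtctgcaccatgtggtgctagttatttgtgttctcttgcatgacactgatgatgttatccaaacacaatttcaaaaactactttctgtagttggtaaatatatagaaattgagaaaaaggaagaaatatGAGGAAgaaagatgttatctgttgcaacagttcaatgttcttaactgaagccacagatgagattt
CD44 (chr11:35138921-35139167, plus strand): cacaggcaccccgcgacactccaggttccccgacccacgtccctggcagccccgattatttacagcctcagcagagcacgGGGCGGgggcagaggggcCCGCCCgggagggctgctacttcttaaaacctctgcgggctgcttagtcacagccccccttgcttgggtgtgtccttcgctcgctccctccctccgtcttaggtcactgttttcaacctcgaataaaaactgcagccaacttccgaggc
FUT4 (chr11:94543671-94543850, plus strand): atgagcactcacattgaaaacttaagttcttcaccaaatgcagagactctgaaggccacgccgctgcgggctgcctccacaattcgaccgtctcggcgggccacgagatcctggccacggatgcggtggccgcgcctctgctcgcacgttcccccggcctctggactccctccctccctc
CD34 (chr1:207911126-207911375, minus strand): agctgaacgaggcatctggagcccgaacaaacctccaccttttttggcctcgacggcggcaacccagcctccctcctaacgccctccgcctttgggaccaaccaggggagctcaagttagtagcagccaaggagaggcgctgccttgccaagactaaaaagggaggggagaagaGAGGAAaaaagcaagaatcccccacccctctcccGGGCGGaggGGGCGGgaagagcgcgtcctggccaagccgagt
The CLEC12A window was 32.8% G or C and held 0 CG dinucleotides, against a median of 11 over windows of 250 bases for 35116 promoters. CD44 (62.3% G or C, 15 CG dinucleotides), FUT4 (62.8%, 15) and CD34 (61.6%, 14) were alike and above that median. The window of CD38, which is not shown, was 52.4% G or C with 3 CG dinucleotides. GAGGAA appeared once in CLEC12A and once in CD34, and it is present in 23.6% of all promoters. The GC box appeared 2 times each in CD44 and CD34 and is present in 42.6% of promoters. TATAAA, which 10.7% of promoters hold, was in none of the 4 windows, nor were TGANTCA, the AP-1 motif (6.57% of promoters), or TTGCNNAA, a C/EBP motif (9.05%). These matches describe letters and not binding.

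To learn which antigens are well expressed in MOLM-13, levels were set side by side as TPM, a relative transcript abundance that corrects for exon length. That length takes in all annotated exons of a gene, 15642 bases for CD47 and 2829 for CD33, and not the transcript expressed. The order rests on these lengths: by CPM in DMSO, CD47 (98.3) stood above FUT4 (84.4) and CD33 (37.5). In DMSO the order was CD44 (47.0 ± 5.34 TPM, SD, n = 4), FUT4 (29.9 ± 2.07 TPM), CD33 (28.4 ± 1.95 TPM), CD47 (13.4 ± 0.273 TPM), CD38 (6.21 ± 0.589 TPM), CLEC12A (2.85 ± 1.04 TPM), HAVCR2 (0.575 ± 0.382 TPM) and CD34. Only FUT4 and CD33 overlapped among neighbours in that order. Percentiles among all tested genes were taken on the mean TPM of all 8 libraries, both treatments together. They were 77.7 for CD44, 71.7 for CD33, 37.7 for CD38 and 8.07 for HAVCR2. In PR-957 FUT4 came first (42.2 ± 4.11 TPM) and CD44 next (32.7 ± 1.99 TPM), and their libraries did not overlap. CD44 then overlapped with CD33 (30.3 ± 2.26 TPM), and CD38 (6.75 ± 0.307 TPM) with CLEC12A (5.48 ± 2.14 TPM). The other neighbours kept the same order and stayed apart.

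Against DMSO, PR-957 changed 3 of the 7 tested antigens at an adjusted p under 0.05: CLEC12A and FUT4 rose and CD44 fell. Across all tested genes 46.6% were called, 23.1% higher and 23.5% lower, so this share of the antigens was near the background. Scaling by library totals alone shifted the median gene by 0.078 on the log2 scale and gave 4066 higher and 2353 lower genes in place of 3045 and 3098, without changing the direction of these 3 antigens. The groups did not overlap for 2 antigens, CD44 and FUT4, where 42.5% of all tested genes did not overlap. With a change of at least 1.5-fold besides, 1 antigen passed, CLEC12A, against 13.8% of tested genes. The median log2 fold change of the 7 was 0.07, beside 0.003 over all tested genes.

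**Figure D1:**
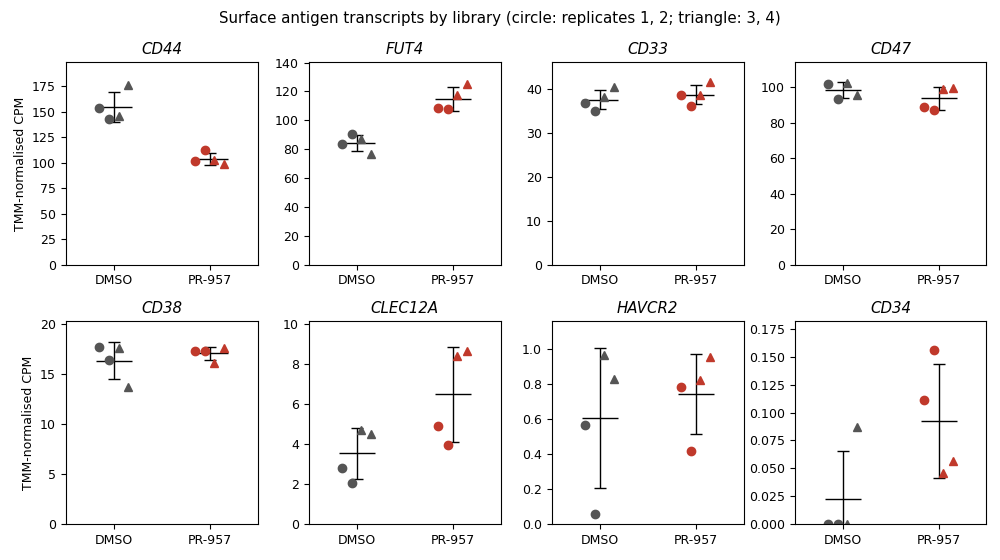
TMM-normalised CPM (y axis, linear, starting at 0) of each of the 8 surface antigen genes in 4 DMSO libraries (grey) and 4 PR-957 libraries (red), with circles for replicates 1 and 2 and triangles for replicates 3 and 4. Lines show the mean and bars the SD: CD44 lies wholly lower and FUT4 wholly higher in PR-957, while CLEC12A splits by replicate number within each group.

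CD44 was the most abundant of these antigens per length in DMSO and the one that fell. It lies at chr11:35139168-35232402 on the plus strand (hg38), with 7057 exonic bases. Its level was 153.3, 142.9, 146.2 and 176.5 CPM in DMSO replicates 1 to 4, and 102.0, 112.1, 102.3 and 98.8 CPM in PR-957 replicates 1 to 4. Every treated library was below every control library, and DMSO replicate 4 stood highest. The mean went from 154.7 ± 15.2 to 103.8 ± 5.76 CPM (SD, n = 4), a 1.49-fold lower level. The log2 fold change was −0.58 (SE 0.07, 95% interval −0.72 to −0.44, adjusted p = 9.12e-07 by edgeR's quasi-likelihood test). An exact two-sided permutation test gave p = 0.0286, the smallest that 4 against 4 libraries allow.

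CD44 has been studied with a set of ligands, linkers, sheddases and splicing factors, of which 19 of 26 were tested. In this list 6 rose, 7 fell and the median log2 fold change was −0.07. Beside this list and each list below stand the 23.1% of all tested genes called higher and the 23.5% called lower, with a median of 0.003. These shares are from the fit without a term for the replicate pair and do not apply to counts given with it. SRGN, the granule proteoglycan serglycin and a CD44 ligand, rose 1.90-fold from 1520 ± 130.0 to 2882 ± 155 CPM. HYAL3, of the hyaluronidase family, rose from 11.0 ± 1.80 to 19.3 ± 0.908 CPM (log2 fold change 0.81, adjusted p = 4.19e-06), although it overlaps a neighbouring gene. ESRP1, a splicing regulator of CD44 exons, fell from 6.47 ± 0.889 to 1.89 ± 0.607 CPM (log2 fold change −1.78, adjusted p = 9.51e-07). MMP14, a membrane protease that can cleave CD44, fell from 127.9 ± 22.1 to 87.0 ± 11.2 CPM (log2 fold change −0.56, adjusted p = 0.00866), and with the replicate number as a block its adjusted p was 0.0715. Counts per gene do not separate CD44 isoforms.

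FUT4 rose and became the highest of the 8 antigens per length. It is a gene of 1 exon at chr11:94543851-94549898 on the plus strand (hg38), and LOC105369438, antisense within that exon, had only 3 to 15 counts in any library. FUT4 was measured at 83.6, 90.2, 86.9 and 76.7 CPM in DMSO replicates 1 to 4, and at 108.5, 107.6, 117.9 and 125.0 CPM in PR-957 replicates 1 to 4. No treated library overlapped with a control library. The mean rose 1.36-fold from 84.4 ± 5.79 to 114.8 ± 8.28 CPM (SD, n = 4). On the log2 scale this was 0.44 (SE 0.06, 95% interval 0.31 to 0.58, adjusted p = 1.30e-05). The exact permutation p was 0.0286. PR-957 over DMSO came to a ratio of 1.24 for replicates 1 and 2 against 1.49 for replicates 3 and 4. For that difference edgeR gave an unadjusted p of 0.0289 and an adjusted p of 0.684 over all genes. Both are descriptive, since the pairs were read off these libraries.

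The fucosylation list held 24 gene symbols, 22 of them in the annotation. Its genes supply GDP-fucose, transfer fucose or build the lactosamine chains that FUT4 acts on. Of these 16 were tested, 5 rose and 6 fell (median log2 fold change 0.04). B4GALT1, a galactosyltransferase that extends lactosamine chains, fell from 37.6 ± 1.74 to 20.6 ± 1.59 CPM (log2 fold change −0.87, adjusted p = 1.98e-08). GMDS, the first enzyme of GDP-fucose synthesis, fell from 48.4 ± 4.67 to 34.2 ± 3.04 CPM (log2 fold change −0.50). POFUT1, which places fucose on Notch receptors, fell from 66.9 ± 4.07 to 48.5 ± 3.42 CPM (log2 fold change −0.46). FUT11, another fucosyltransferase, fell from 12.3 ± 4.00 to 7.53 ± 0.423 CPM (log2 fold change −0.72, adjusted p = 0.00999), and replicates 3 and 4 alone gave an adjusted p of 0.306. These 4 were named for the size of their change, and the 5 genes of the list that rose, as FUT4 did, are not among them.

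CLEC12A rose, but its level was low and differed as much between replicates as between treatments. The gene lies at chr12:9951268-9995209 on the plus strand (hg38) among other C-type lectin genes. The counts were 45, 37, 78 and 103 in DMSO replicates 1 to 4, and 88, 76, 184 and 154 in PR-957 replicates 1 to 4. As levels these were 2.82, 2.06, 4.71 and 4.50 CPM in DMSO and 4.90, 3.97, 8.40 and 8.66 CPM in PR-957. The groups overlapped, since DMSO replicates 3 and 4 stood above PR-957 replicate 2. The mean rose 1.83-fold from 3.52 ± 1.29 to 6.48 ± 2.40 CPM (SD, n = 4). On the log2 scale this was 0.87 (SE 0.32, 95% interval 0.15 to 1.59, adjusted p = 0.0480). The exact permutation p was 0.114, and the adjusted p rose to 0.0805 to 0.118 without DMSO replicate 1, DMSO replicate 2, PR-957 replicate 3 or PR-957 replicate 4.

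Within each pair of replicates the groups no longer overlapped for CLEC12A. Its mean went from 2.44 to 4.43 CPM in replicates 1 and 2, a ratio of 1.82, and from 4.60 to 8.53 CPM in replicates 3 and 4, a ratio of 1.85. Replicates 1 and 2 alone gave 0.87 on the log2 scale (adjusted p = 0.00484) and replicates 3 and 4 alone 0.89 (adjusted p = 0.00182), each on 2 libraries a group. With the replicate pair as a term in the edgeR fit the log2 fold change was 0.88 (SE 0.15, adjusted p = 2.60e-05). Between the pairs the log2 difference was 0.93 (SE 0.15), higher in replicates 3 and 4. Since the pairs were taken from these libraries, this difference is a description with no test. The adjusted p-values for replicates 1 and 2 alone, 3 and 4 alone, or with the pair term are descriptive for the same reason. As a description too, CLEC12A was the only 1 of the 7 antigens past an adjusted p of 0.05 for the pair, where 2.63% of all tested genes were past it. Only 5 genes (0.0379%) had a treatment effect that differed between the pairs at an adjusted p under 0.05, and no surface antigen was among them, with FUT4 alone at an unadjusted p under 0.05 (0.0289).

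Among 14 other C-type lectin genes, 7 were tested, 1 rose and 1 fell (median log2 fold change 0.10). CLEC5A, an activating lectin receptor of myeloid cells on chromosome 7, rose from 3.25 ± 1.08 to 10.4 ± 3.30 CPM (log2 fold change 1.66, adjusted p = 0.000621). CLEC2D, a ligand of a natural killer cell receptor encoded on chromosome 12 like CLEC12A, fell from 35.3 ± 3.42 to 20.7 ± 2.02 CPM (log2 fold change −0.77, adjusted p = 6.54e-07). CLEC1B, which overlaps CLEC12A on the opposite strand, had at most 3 counts in any library, and CLEC12B, the next of the list downstream, had 7 to 37. With the replicate pair as a term, CLEC2B also passed, and 2 of the 7 rose, with no share of all genes beside this count.

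CLEC12A shared the split by replicates with some genes of the related lists, which are named here after their values were seen. Other lectin and myeloid genes did not pass for the pair in the edgeR fit, such as CLEC2D (adjusted p = 0.881), ITGAM (0.593) and the marker SPI1 (0.691). Of the 133 tested genes of the 10 related lists, 10 (7.52%) were past the same mark for the pair, beside 2.63% of all tested genes. This is again a description, and the lists were chosen with earlier results known, so nothing is drawn from the share. Of these 10 genes, 9 were higher in replicates 3 and 4. They were CD93, ANPEP, SIGLEC5, SIGLEC6, CLEC12B, CLEC2B, CLEC5A, FGR and CEMIP2, with CLEC11A lower. ANPEP, the aminopeptidase CD13, went from 15.1 to 28.4 CPM between the pairs in DMSO and from 29.2 to 55.9 CPM in PR-957. Its treatment log2 fold change was 0.96 with and without the pair in the fit, but the adjusted p was 0.0797 without it and 7.19e-11 with it. CLEC2B likewise had an adjusted p of 0.234 without the pair and 0.000331 with it, for a log2 fold change of 0.61 in the latter fit. For both genes the values with the pair are descriptive, since the pair was read off these libraries.

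**Figure D2:**
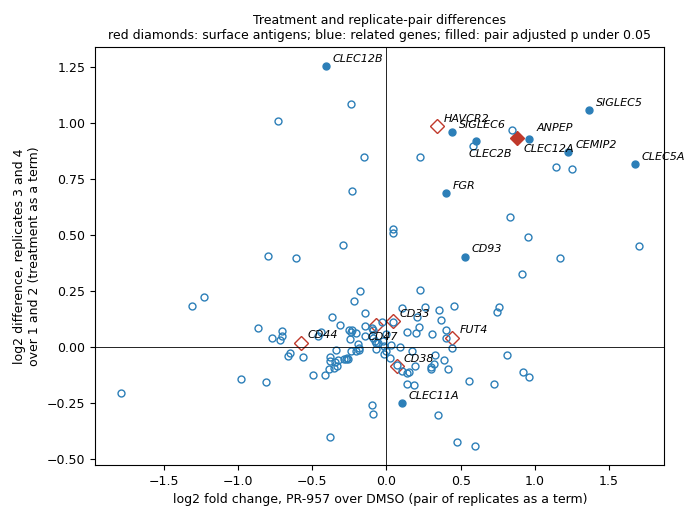
Log2 fold change of PR-957 over DMSO (x axis) against the log2 difference of replicates 3 and 4 over 1 and 2 (y axis), both from a fit with treatment and pair, for the 7 tested surface antigens (red diamonds) and 133 related genes (blue circles). Filled symbols were past an adjusted p of 0.05 for the pair, which describes a split read off these libraries: CLEC12A lies at 0.88 and 0.93, beside ANPEP at 0.96 and 0.93, while CD44 and FUT4 sit near 0 on the y axis.

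CD33, the target of an approved antibody conjugate, did not pass the test. The gene is at chr19:51211054-51240016 on the plus strand (hg38). Levels were 36.6, 35.0, 38.1 and 40.3 CPM in DMSO and 38.6, 36.0, 38.5 and 41.4 CPM in PR-957, in the order of the replicate numbers. The 2 groups overlapped almost fully. Means were 37.5 ± 2.25 and 38.6 ± 2.24 CPM (SD, n = 4), and the log2 fold change was 0.04 (SE 0.07, 95% interval −0.10 to 0.18, adjusted p = 0.646).

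The list of CD33's relatives and of the enzymes that make sialic acid ligands counted 25 genes. Of its 21 tested members 8 rose and 4 fell, with a median log2 fold change of 0.10. SIGLEC5 rose from 1.59 ± 1.01 to 3.97 ± 1.33 CPM (log2 fold change 1.30, adjusted p = 0.0243), which was lost, at up to 0.0645, without DMSO replicate 2, PR-957 replicate 3 or PR-957 replicate 4. SIGLEC5 has a near-identical paralog, so its counts are uncertain. SIGLEC10, a receptor for CD24 and also in the CD47 list, rose from 1.72 ± 0.784 to 3.90 ± 0.741 CPM (log2 fold change 1.15, adjusted p = 0.00245). ST3GAL6 rose from 7.44 ± 0.987 to 14.1 ± 2.50 CPM (log2 fold change 0.92) while ST3GAL1 fell from 65.3 ± 5.98 to 40.1 ± 0.695 CPM (log2 fold change −0.71), and both transfer sialic acid to galactose.

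Of 12 kinases, phosphatases and adaptors of ITIM signalling, on which CD33 and CLEC12A both draw, 11 were tested, 5 fell and the others did not pass (median log2 fold change −0.15). FYN, a kinase of the SRC family, fell from 36.3 ± 0.648 to 14.7 ± 2.48 CPM (log2 fold change −1.30, adjusted p = 2.13e-09). PTPN6, the phosphatase SHP-1 that docks on ITIMs, fell from 284.3 ± 4.66 to 236.7 ± 10.2 CPM (log2 fold change −0.26, adjusted p = 0.000305). CBL, a ubiquitin ligase, fell by 0.21 on the log2 scale, with an adjusted p of 0.0138 that reached up to 0.187 under the alternatives and was lost without PR-957 replicate 1. With library totals alone 3 of this list were called. With the replicate pair as a term, which gives a description only, 5 fell and 1 rose. The riser was FGR, a kinase of the SRC family (log2 fold change 0.40, adjusted p = 0.00529, against 0.165 without the pair).

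CD47 did not pass the test. At chr3:108043094-108094200 on the minus strand (hg38), it had 101.8, 93.3, 102.3 and 95.7 CPM in DMSO replicates 1 to 4 and 88.7, 86.9, 99.0 and 99.6 CPM in PR-957 replicates 1 to 4. PR-957 replicates 1 and 2 were below all DMSO libraries, while 3 and 4 lay among them. Means were 98.3 ± 4.45 and 93.5 ± 6.68 CPM, and the log2 difference was −0.07 (SE 0.06, 95% interval −0.20 to 0.06, adjusted p = 0.355). The sign turned with library totals alone and in replicates 3 and 4 alone, both near 0.

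Among 14 receptors, ligands and modifiers of the CD47 axis 11 were tested, 5 rose and 2 fell, with a median log2 fold change of 0.39. SIRPA, the CD47 receptor, rose from 133.1 ± 5.79 to 173.8 ± 6.35 CPM (log2 fold change 0.39, adjusted p = 8.99e-06). SIRPB1, its activating relative with near-identical stretches, rose from 12.3 ± 1.51 to 20.3 ± 1.86 CPM (log2 fold change 0.72). CALR, calreticulin, a phagocytosis signal when exposed on the surface and otherwise a chaperone of the endoplasmic reticulum, rose from 1064 ± 113 to 1559 ± 60.7 CPM (log2 fold change 0.55, adjusted p = 2.65e-06). SIGLEC10, which rose, and PTPN6, which fell, are given above and also belong to this list.

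CD38 did not pass the test either. The gene lies at chr4:15778328-15853232 on the plus strand (hg38). Its levels were 17.7, 16.4, 17.6 and 13.7 CPM in DMSO replicates 1 to 4 and 17.3, 17.3, 16.1 and 17.6 CPM in PR-957 replicates 1 to 4. DMSO replicate 4 was the lowest library and the others overlapped. The log2 fold change was 0.07 (SE 0.09, 95% interval −0.13 to 0.26, adjusted p = 0.575) and −0.02 without DMSO replicate 4. Of 20 genes of NAD metabolism and CD38's surface partner 14 were tested, 5 rose and 3 fell (median log2 fold change 0.09). BST1, the paralog of CD38, rose from 8.54 ± 0.774 to 14.3 ± 1.11 CPM (log2 fold change 0.74, adjusted p = 1.17e-05). PECAM1, the surface ligand of CD38, rose from 49.2 ± 9.64 to 83.0 ± 1.85 CPM (log2 fold change 0.75), NADK, which makes NADP, rose from 90.4 ± 8.14 to 122.5 ± 6.14 CPM (log2 fold change 0.44), and NAMPT, of the NAD salvage route, fell from 54.1 ± 4.15 to 41.9 ± 3.26 CPM (log2 fold change −0.37).

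HAVCR2 was detected at the edge of measurement. Its locus is chr5:157085832-157109044 on the minus strand (hg38). Counts were 9, 1, 16 and 19 in DMSO replicates 1 to 4 and 14, 8, 18 and 17 in PR-957 replicates 1 to 4. The lowest library was DMSO replicate 2, and both groups overlapped. The log2 fold change was 0.28 with a wide error (SE 0.47, 95% interval −0.71 to 1.28, adjusted p = 0.647), which allows a change in either direction, and without DMSO replicate 2 it was −0.09. Among 22 ligands and other checkpoint molecules 14 were tested, 3 rose and 5 fell (median log2 fold change −0.21). LGALS3, the galectin-3 gene, rose from 7.23 ± 3.04 to 13.8 ± 0.934 CPM (log2 fold change 0.91, adjusted p = 0.0166), and without PR-957 replicate 4 the adjusted p was 0.0534. PVR and NECTIN2, ligands of the receptors TIGIT and CD226, fell from 39.7 ± 3.86 to 25.3 ± 0.494 CPM and from 72.4 ± 2.05 to 54.4 ± 6.59 CPM (log2 fold changes −0.65 and −0.41). CD86, a costimulatory ligand, fell by 0.84 on the log2 scale (adjusted p = 0.0302) and was lost, at adjusted p up to 0.699, in 6 of 19 alternatives, among them without DMSO replicate 3, DMSO replicate 4, PR-957 replicate 2 or PR-957 replicate 3.

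CD34 was not detectably expressed at this depth. At chr1:207880972-207911125 on the minus strand (hg38), it had counts of 0, 0, 0 and 2 in DMSO and 2, 3, 1 and 1 in PR-957, all at or under the floor of 3, and no fold is given. Its paralogs and other sialomucins, adaptors and selectins came to 9 genes, of which 6 were tested, 3 fell and the others did not pass (median log2 fold change −0.08). CD164, the sialomucin endolyn, fell from 250.3 ± 19.4 to 184.4 ± 2.82 CPM (log2 fold change −0.44, adjusted p = 4.06e-06). SELPLG, the P-selectin ligand, fell from 85.3 ± 5.98 to 70.7 ± 6.08 CPM (log2 fold change −0.27, adjusted p = 0.00267), and in replicates 1 and 2 alone the adjusted p was 0.0934. CRKL, an adaptor for CD34, fell by 0.14 on the log2 scale (adjusted p = 0.0490) and was lost in 15 of 19 alternatives. With the replicate pair as a term 1 gene of this list also rose, PODXL2, a paralog of CD34, named after its values were seen.

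**Figure D3:**
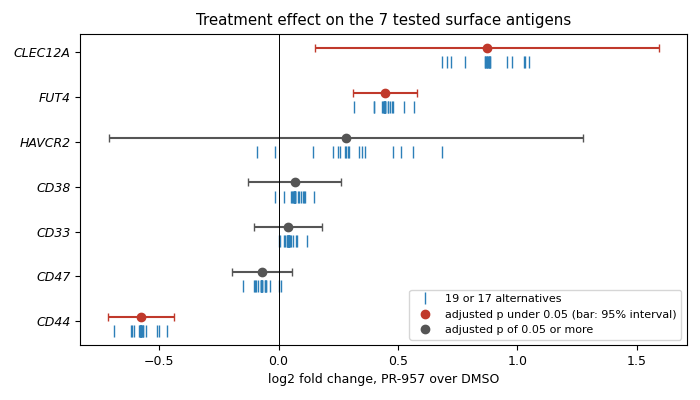
Log2 fold change of PR-957 over DMSO (x axis) for the 7 tested surface antigens, with points and 95% intervals for the result given and blue ticks for the 19 alternatives (17 for HAVCR2). Red points, CLEC12A, FUT4 and CD44, passed an adjusted p of 0.05, and their ticks stayed on their side of 0.

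A further 25 antigens used in typing AML blasts or leukemia stem cells held 16 tested genes, of which 1 rose and 8 fell (median log2 fold change −0.25). FLT3, the growth factor receptor, fell from 340.4 ± 7.24 to 173.1 ± 19.7 CPM (log2 fold change −0.98, adjusted p = 1.10e-09). NCAM1, the CD56 antigen, fell from 98.7 ± 6.35 to 56.1 ± 6.43 CPM (log2 fold change −0.81). PTPRC, the pan-leukocyte antigen CD45, fell from 206.7 ± 23.1 to 130.8 ± 9.81 CPM (log2 fold change −0.66, adjusted p = 1.43e-06), although the annotation places it a second time on another contig and its counts are uncertain. CD93 rose from 67.6 ± 13.3 to 97.1 ± 13.1 CPM (log2 fold change 0.52, adjusted p = 0.0311), and the adjusted p reached up to 0.0805 without DMSO replicate 2, PR-957 replicate 3 or PR-957 replicate 4. With the replicate pair as a term 3 rose and 8 fell, and the share of all genes called in that fit is not given. The additional genes were ANPEP, given above, and CD82, a tetraspanin, named after its values were seen. Without the pair the estimate for CD82 was 0.78 on the log2 scale (adjusted p = 0.0637, not called), and with it 0.83 (adjusted p = 0.00148), the latter as a description. The 10 lists held 189 gene symbols and 133 tested genes. Of the tested genes 76 were called (33 higher, 43 lower), which is 57.1% beside 46.6% of all genes, and the median log2 fold change was −0.02. The lists were chosen with earlier results known, and nothing is drawn from this share.

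**Figure D4:**
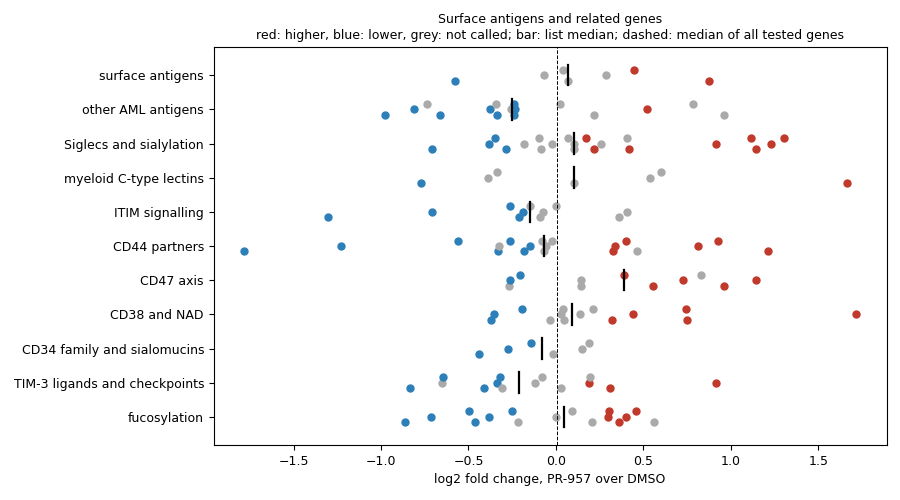
Log2 fold change of PR-957 over DMSO (x axis) for each tested gene of the surface antigen list and the 10 related lists (rows), red for higher, blue for lower and grey for not called at an adjusted p of 0.05. Black bars show list medians, from −0.25 (other AML antigens) to 0.39 (CD47 axis), and the dashed line the median of all 13179 tested genes.

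For each tested antigen the gene most like it was sought by Pearson correlation of log2 CPM over the 8 libraries, as a description, among at least 11270 genes. These libraries share treatment, so that genes that changed with treatment correlate. Each r given is the highest among all those genes on 8 libraries, and such a maximum can be high without a link. CD44 was most like FNBP1 (r = 0.994), which fell (log2 fold change −0.35), and FUT4 most like CCDC137 (r = 0.991), which rose (0.59). CLEC12A was most like MERTK (r = 0.995), a phagocytic receptor kinase that was not called by edgeR (log2 fold change 0.85, adjusted p = 0.0989). MERTK was also nearest to CLEC12A in deviations from the group means (r = 0.993). For the antigens that did not pass the test the nearest were SERPINB1 for CD33 (r = 0.962), MYL5 for CD47 (r = 0.940), IER3IP1 for CD38 (r = 0.979) and BLOC1S1 for HAVCR2 (r = 0.991). In deviations from the group means the nearest were MYO7A to CD33 (r = 0.978), GIPC3 to CD44 (r = 0.966), SIAH1 to CD47 (r = 0.979), LOC107985268 to CD38 (r = 0.991), BLOC1S1 to HAVCR2 (r = 0.990) and DIS3L to FUT4 (r = 0.988).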

How the data were processed

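RNA-sequencing counts of 8 MOLM-13 libraries were analysed. Per the labels and the study's methods, the authors trimmed reads with Trimmomatic 0.39, aligned them to hg38 with STAR 2.7.10a and made the deposited whole-number counts per gene with featureCounts 2.0.1, as pairs on the reverse strand, so antisense reads are kept apart as far as the library kit marks strand. A second deposited table of the authors' own comparison (log2 fold changes and p-values) was not used. Among the counts, 6 rows without values were left out and 14724 genes had 0 counts. The 13179 tested genes held 99.9% of counts. CPM and TPM were computed from the counts and the deposited exon length.

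Genes were tested with edgeR 4.0.16 (R 4.3.3): filterByExpr, TMM scaling, robust quasi-likelihood F test, two-sided, Benjamini-Hochberg adjustment over all tested genes, called at 0.05. Intervals are 95%. Checks on simulated data were run. The closest replicates, DMSO 1 and 3, differed by a chi-square of 3.18 per gene, beyond sampling noise, and all libraries were kept apart. The members and lists were chosen with earlier results of these data known. Named genes are all 8 members, the up to 4 genes of each related list with the largest change among those called with an average log2 CPM of at least 1, and for each member the gene most like it. A gene that the rule names in the ITIM signalling list is not reported here. Genes named for their difference between replicate pairs were chosen after their values were seen. Calls and adjusted p-values from fits with the pair term, or within a pair, rest on a split taken from these data and are descriptive. The share of all tested genes called with the pair term is not given, so list counts from that fit have no background beside them. Alternatives were DESeq2 1.42.0, limma-voom 3.58.1, other scalings and filters, a replicate block, a term for the pairs of replicates (1 and 2 against 3 and 4, a split seen in these data), a 1.5-fold threshold, and subsets of libraries.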

Additional observations from a re-analysis of the deposited data

Results flagged for a closer look

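In 3 of 88 groups of 4 libraries examined, 1 library stood apart from the other libraries of its group by Dixon's ratio, where chance would give about 1 in 20. CD34 was 0.0874 CPM in DMSO replicate 4, from 2 counts, and 0 in the other DMSO libraries. SIRPA was 164.3 CPM in PR-957 replicate 4, while the other PR-957 libraries were between 176.5 and 177.4 CPM. CD164 was 279.2 CPM in DMSO replicate 4, while the other DMSO libraries were between 238.6 and 244.1 CPM.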

How the results depend on the processing

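CD44 (log2 fold change −0.69 to −0.47) and FUT4 (0.31 to 0.57) kept direction and call in all 19 alternatives, and CLEC12A (0.68 to 1.05) in 15. Leaving out 1 library gave CLEC12A 0.68 to 1.05, CD38 −0.0156 to 0.11 and HAVCR2 −0.0913 to 0.56. CD47 turned to 0.00988 with library totals alone and 0.00128 in replicates 3 and 4 only, and HAVCR2 to −0.0157 in replicates 3 and 4 only. When a change beyond 1.5-fold was required (glmTreat in edgeR) 0 antigens were called, 0 at an unadjusted p under 0.05. The share of all genes called by glmTreat is not given, so nothing is drawn from this. DESeq2's usual test called 3 antigens, where over all genes it called 2893 higher and 2977 lower. HAVCR2 had a value in 17 of 19 alternatives. The genes called ran from 4681 (replicates 3 and 4 only) to 6913 (replicate block). Same-numbered libraries correlated at 0.0985 to 0.213 in their deviations from the group means, and 7 of 8 correlated best with their own number, a hint from the data and not from the design. With the replicate block CLEC12A had an adjusted p of 2.65e-05 for a log2 fold change of 0.88, and 87 genes of the related lists were called in place of 76. The order of levels was the same by CPM per kilobase. That unit uses the same counts and exon lengths as TPM, so it was no separate check. Depth limits HAVCR2 and CD34, and the intervals cover the spread between these libraries only.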
